A study of Homo sapiens with 6 samples.

Results

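Nucleolar ribosome biogenesis factors are the proteins that transcribe ribosomal RNA, modify and cut it, and assemble it with ribosomal proteins. The 41 genes described here form a list of named factors, from RNA polymerase I and its regulator MYC to the factors that finish the 40S and 60S subunits, and were found by gene symbol in the authors' deposited table. All 41 were among its 16617 genes. Messenger RNA was sequenced from T3M4 cells, an established line of human pancreatic ductal adenocarcinoma, grown in DMEM with fetal bovine serum. There were 3 libraries from T3M4 cells with a guide RNA against METTL13 (sgMETTL13, a METTL13 knockdown by its genotype label) and 3 from T3M4 cells with a control guide RNA (sgControl, labelled WT). METTL13 is a methyltransferase of eEF1A, the elongation factor that brings aminoacyl-tRNAs to the ribosome. Whether the guides were delivered to clones or pools, and whether the 3 libraries of a group come from separate cultures are not given in these sources, so p-values measure the spread between these libraries, which may be technical. The question is which of these transcripts differ between sgMETTL13 and sgControl cells.

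In the nucleolus, RNA polymerase I makes a long precursor that holds the 18S, 5.8S and 28S ribosomal RNAs. Box C/D and box H/ACA small nucleolar ribonucleoproteins (snoRNPs) guide its methylation and pseudouridylation, the small subunit (SSU) processome folds and cuts the 18S part, and separate sets of factors build the pre-60S particle. Many of these genes are known targets of MYC, which binds with its partner MAX to E-box DNA, and growing tumour cells usually express them highly.

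The deposited table gives 1 average per group for each gene and no value per library, so levels below are the authors' averages without a replicate spread. Levels are in TPM (a transcript's length-corrected share of all transcripts, which allows genes to be compared). Differences are the authors' log2 fold changes of sgMETTL13 over sgControl, scaled between groups by the authors. A gene is called where the authors' adjusted p over all genes is under 0.05. The implied standard error is what a normal test would need to give the deposited p at that fold change, and sets the 95% intervals below. METTL13 itself fell by 2.78 on the log2 scale per the authors' deposited table, with 5.63 TPM in sgMETTL13 and 39.9 TPM in sgControl (adjusted p = 2.5e-127), and EEF1A1, the main eEF1A gene, was at 0.02 (adjusted p = 0.968). The authors' average estimated reads over all genes came to 15247500 for sgMETTL13 and 15240866 for sgControl. The epithelial markers EPCAM, KRT8, KRT18 and KRT19 averaged between 78.2 and 2107 TPM over both groups. The leukocyte marker PTPRC and the islet marker INS were not listed. The fibroblast marker COL1A1 averaged 14.2 TPM in sgMETTL13 and 14.0 TPM in sgControl. The endothelial marker PECAM1 averaged 1.18 TPM in sgMETTL13 and 1.68 TPM in sgControl, and the acinar marker PRSS1 1.84 TPM in sgMETTL13 and 0.81 TPM in sgControl.

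Transcripts of nucleolar factors differed little between the groups. Of the 41 members 2 were called per the authors' deposited table, both lower in sgMETTL13, namely DDX10 and HEATR1 of the SSU processome. That is 4.88% of the members, beside 3.80% of all genes called, with 1.08% called lower and 2.73% higher. Genes with an average of at least 205 reads, the median over all genes, are called abundant here. Among the 8309 abundant genes, which hold 40 of the 41 members, 7.04% were called, 1.83% lower and 5.21% higher. The share called in either direction was thus close to the background, and the share called lower was above it but rests on 2 genes. The members lay mostly on 1 side of 0. A log2 fold change below 0 was found for 31 members (75.6%) per the authors' deposited table, against 49.8% of all genes and 46.7% of abundant genes. Their median was -0.06 (quartiles -0.15 and -0.01), beside medians of 0.00 over all genes and 0.01 over abundant genes. At an adjusted p under 0.1 there were 5 lower members, beside 1.62% of all genes and 2.71% of abundant genes. At an unadjusted p under 0.05 there were 10 lower members (24.4%) and 2 higher (4.88%), beside 4.80% lower and 7.65% higher of all genes, and 7.27% lower and 13.7% higher of abundant genes. Scaling between groups bears on these counts. The authors' scaling adds 0.05 on the log2 scale to each ratio of read counts. Without it 35 members had a lower average read count in sgMETTL13, as did 5187 of the 8309 abundant genes. By average TPM, 37 members were lower in sgMETTL13, beside 10609 of all 16617 genes and 5656 of the abundant genes. The median log2 ratio of average TPM (pseudocount 1) was -0.14 in the members and -0.06 in abundant genes. As these are bulk samples, fewer cells of a kind and less RNA per cell cannot be told apart.

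The 3 members with the lowest fold changes, DDX10, UTP20 and HEATR1, all belong to the SSU processome. Their promoters are shown from RefSeq (GRCh38.p14; 250 bases before to 50 after the transcript start, 5′ to 3′ on the gene's strand) because they are the genes at which the largest differences among the members were measured. Capitals mark CACGTG, the E-box that MYC with MAX is known to bind, which reads the same on both strands; DDX10 (chr11:108664819-108665118, plus strand) and HEATR1 (chr1:236604467-236604766, minus strand) have none in this window and UTP20 (chr12:101279855-101280154, plus strand) has 1.
DDX10: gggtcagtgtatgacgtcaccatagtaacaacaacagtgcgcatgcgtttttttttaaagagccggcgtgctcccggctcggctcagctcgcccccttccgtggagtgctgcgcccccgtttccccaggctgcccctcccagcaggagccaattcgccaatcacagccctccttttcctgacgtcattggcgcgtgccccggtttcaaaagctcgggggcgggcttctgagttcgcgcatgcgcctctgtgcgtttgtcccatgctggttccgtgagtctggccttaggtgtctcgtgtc
UTP20: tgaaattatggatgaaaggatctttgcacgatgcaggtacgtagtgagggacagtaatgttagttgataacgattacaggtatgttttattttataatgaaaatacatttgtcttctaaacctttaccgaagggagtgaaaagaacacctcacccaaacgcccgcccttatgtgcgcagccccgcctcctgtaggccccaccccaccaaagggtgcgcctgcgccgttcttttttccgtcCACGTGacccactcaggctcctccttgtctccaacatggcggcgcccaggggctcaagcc
HEATR1: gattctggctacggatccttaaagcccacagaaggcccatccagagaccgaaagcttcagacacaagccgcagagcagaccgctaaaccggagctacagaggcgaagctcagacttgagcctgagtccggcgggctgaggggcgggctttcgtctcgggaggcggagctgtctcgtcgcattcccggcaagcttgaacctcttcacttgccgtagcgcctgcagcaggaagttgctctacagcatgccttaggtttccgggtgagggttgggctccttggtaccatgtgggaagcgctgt

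Levels spanned 154-fold among the members in sgMETTL13 and 132-fold in sgControl, and kept nearly the same order in both groups. NPM1, a histone and pre-60S chaperone of the granular nucleolus, was the most abundant at 1410 TPM in sgMETTL13 and 1533 TPM in sgControl. NCL (nucleolin), which binds pre-ribosomal RNA, followed at 552 TPM in sgMETTL13 and 648 TPM in sgControl, and the box C/D methyltransferase FBL (fibrillarin) at 390 TPM in sgMETTL13 and 393 TPM in sgControl. UTP20 (9.17 TPM in sgMETTL13 and 11.6 in sgControl) and UTP15 (9.61 in sgMETTL13 and 11.6 in sgControl) were the least abundant. Summed over the 41 members, TPM was 5231 in sgMETTL13 and 5695 in sgControl, a difference of -8.15%. NCL and NPM1 held 37.5% of that sum in sgMETTL13 and 38.3% in sgControl, and accounted for 47.4% of the difference; without both of them the sum differed by -6.95%. The 4 members with a higher average TPM in sgMETTL13 were MYC, PES1, GAR1 and BOP1. With no spread per library, neighbours in this order cannot be separated statistically.

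**Figure D1:**
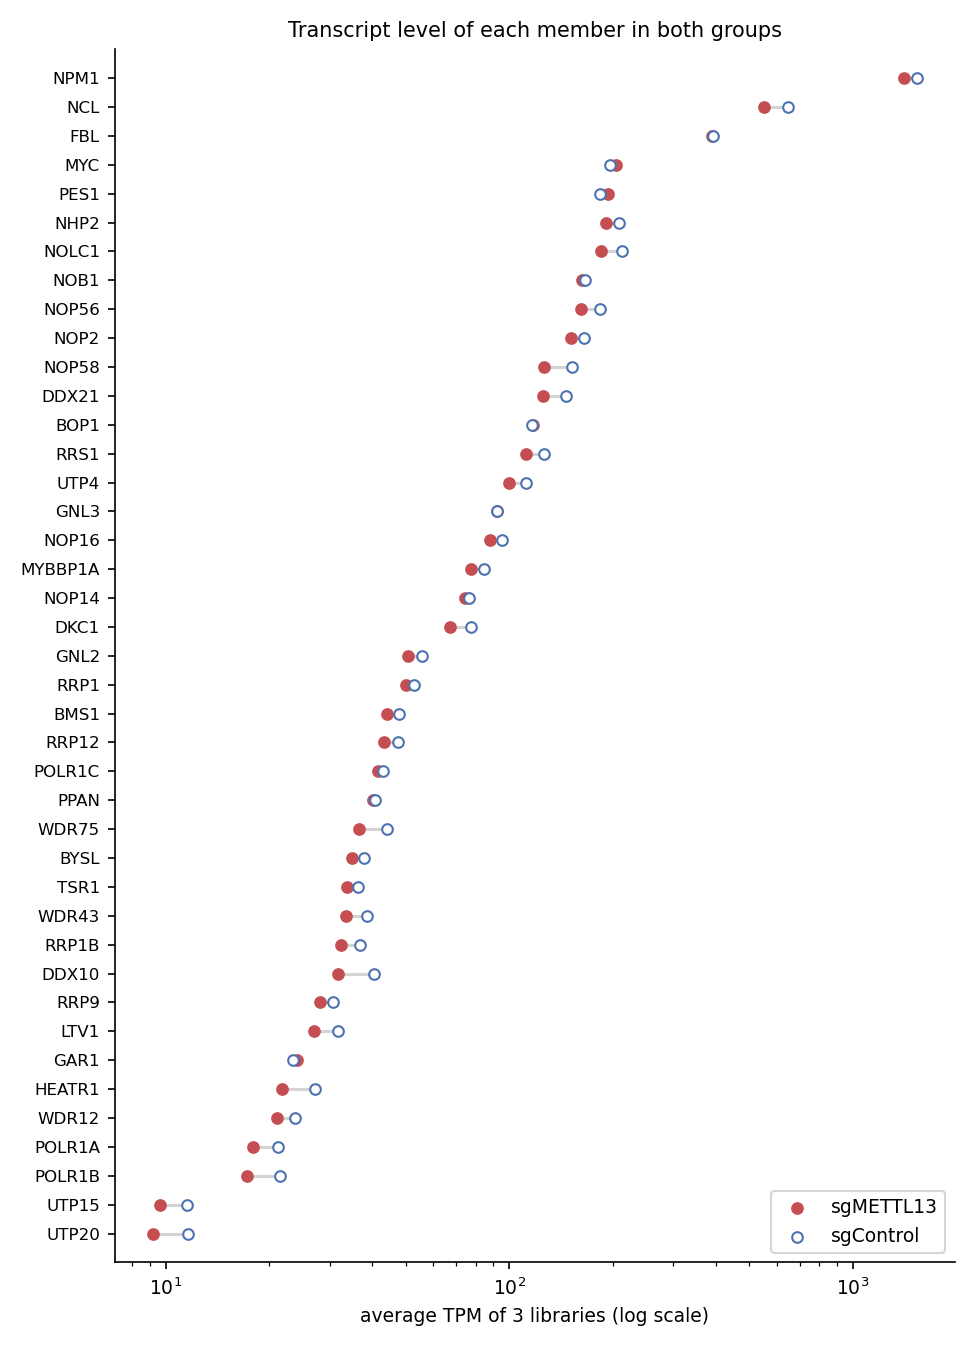
Average TPM of each member (log axis) in sgMETTL13 (filled) and sgControl (open), ordered by the sgMETTL13 level. In 37 of 41 members the sgMETTL13 point lies left of the sgControl point. Average TPM was also lower in sgMETTL13 in 5656 of 8309 abundant genes (not drawn). Gaps are small at every level from UTP20 (9.17 and 11.6 TPM) to NPM1 (1410 and 1533 TPM).

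MYC, the transcription factor upstream of many of these genes, was not called. Its level was 205 TPM in sgMETTL13 and 196 TPM in sgControl, with a log2 fold change of 0.14 per the authors' deposited table (interval 0.02 to 0.26, unadjusted p = 0.0262, adjusted p = 0.277). MYC thus lay on the other side of 0 from most members. Its value was 0.09 (adjusted p = 0.764) once a smooth trend in transcript GC content and length was taken out. By the ratio of average read counts it was 0.09, and by that of average TPM (pseudocount 1) 0.06. In the MYC-MAX network around MYC, 1 of 11 measured genes was called, MXD1, a repressor that competes with MYC for MAX. That is 9.09%, beside 3.80% of all genes and 7.04% of abundant genes. The list had no shared direction, with 5 genes below 0 and 6 above. Among those not called, MXD4 had 0.23 and MNT 0.22, whereas MXI1 had -0.21, MGA -0.21 and MXD3 -0.41 per the authors' deposited table. MXD1 rose by 0.29 per the authors' deposited table (44.3 TPM in sgMETTL13 and 38.1 TPM in sgControl, adjusted p = 0.00122), and kept its call once a smooth trend in transcript GC content and length was taken out (0.33, adjusted p = 0.000132).

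Among the rRNA transcription genes, 0 of 5 were called and 4 lay below 0, with a median of -0.15 per the authors' deposited table. At an unadjusted p under 0.05, 3 were lower. POLR1B, the second largest subunit of RNA polymerase I, averaged 17.3 TPM in sgMETTL13 and 21.5 TPM in sgControl, a log2 fold change of -0.23 per the authors' deposited table (interval -0.39 to -0.07, adjusted p = 0.0911). POLR1A, the largest subunit, averaged 18.0 TPM in sgMETTL13 and 21.3 TPM in sgControl (-0.17 per the authors' deposited table, adjusted p = 0.212). The helicase DDX21, which acts in rRNA transcription and processing, averaged 126 TPM in sgMETTL13 and 147 TPM in sgControl (-0.15 per the authors' deposited table, adjusted p = 0.144). MYBBP1A, a nucleolar transcription regulator, had -0.07 and POLR1C, a subunit shared by RNA polymerases I and III, 0.01 per the authors' deposited table. NCL had a log2 fold change of -0.16 per the authors' deposited table (interval -0.27 to -0.05, adjusted p = 0.0833) and NPM1 -0.05 (interval -0.17 to 0.07).

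The SSU processome held both called members and had a median of -0.19 on the log2 scale per the authors' deposited table, the lowest of the 8 role groups. Once a smooth trend in transcript GC content and length was taken out, its median was -0.15 with 7 of 9 below 0, and the box C/D snoRNP group had the lowest at -0.17. Of its 9 members 2 were called lower, 0 higher, and 8 lay below 0. DDX10, a helicase whose yeast counterpart frees a snoRNA from the precursor, fell by 0.28 per the authors' deposited table (31.7 TPM in sgMETTL13 and 40.5 TPM in sgControl). Its average estimated read count was 799 in sgMETTL13 and 1005 in sgControl, and its interval ran from -0.45 to -0.11 (implied standard error 0.0862, adjusted p = 0.0350). HEATR1, a large scaffold of the UTP-A complex that links rRNA transcription to processing, fell by 0.25 per the authors' deposited table (21.8 TPM in sgMETTL13 and 27.3 TPM in sgControl). Its average estimated read count was 1447 in sgMETTL13 and 1788 in sgControl, with an interval from -0.38 to -0.13 (implied standard error 0.0648, adjusted p = 0.00444). On the linear scale DDX10 fell by 17.6% and HEATR1 fell by 16.1%. Neither kept its call with the GC and length trend taken out (adjusted p = 0.189 for DDX10 and 0.0796 for HEATR1).

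DDX10 spans chr11:108665025-108940930 (plus strand) and HEATR1 chr1:236549005-236604504 (minus strand) in GRCh38, by GENCODE 29. In all, 2095 of the 8782 exon bases of HEATR1 overlap exons of LGALS8 on the opposite strand, and whether counting used strand is not stated. LGALS8, a galectin gene, had -0.19 per the authors' deposited table (adjusted p = 0.310), with 905 reads in sgMETTL13 and 1073 in sgControl. The averages of both genes are whole multiples of 1 read over 3 libraries, so the table shows no fractional division of reads between them.

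The other UTP-A members lay below 0 without passing the test. UTP15 had -0.19, WDR75 -0.20, WDR43 -0.13 and UTP4 -0.12 per the authors' deposited table, with adjusted p between 0.273 and 0.592. WDR75 averaged 36.5 TPM in sgMETTL13 and 44.1 TPM in sgControl, and WDR43 33.5 TPM in sgMETTL13 and 38.5 TPM in sgControl. NOL11, which completes this complex and was named after its value was seen, had -0.02 per the authors' deposited table. UTP20, a large HEAT-repeat factor of 18S processing, had -0.26 (interval -0.44 to -0.09, adjusted p = 0.0670). The GTPase BMS1, at -0.04, and NOP14, at 0.03 per the authors' deposited table, had intervals that covered 0.

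**Figure D2:**
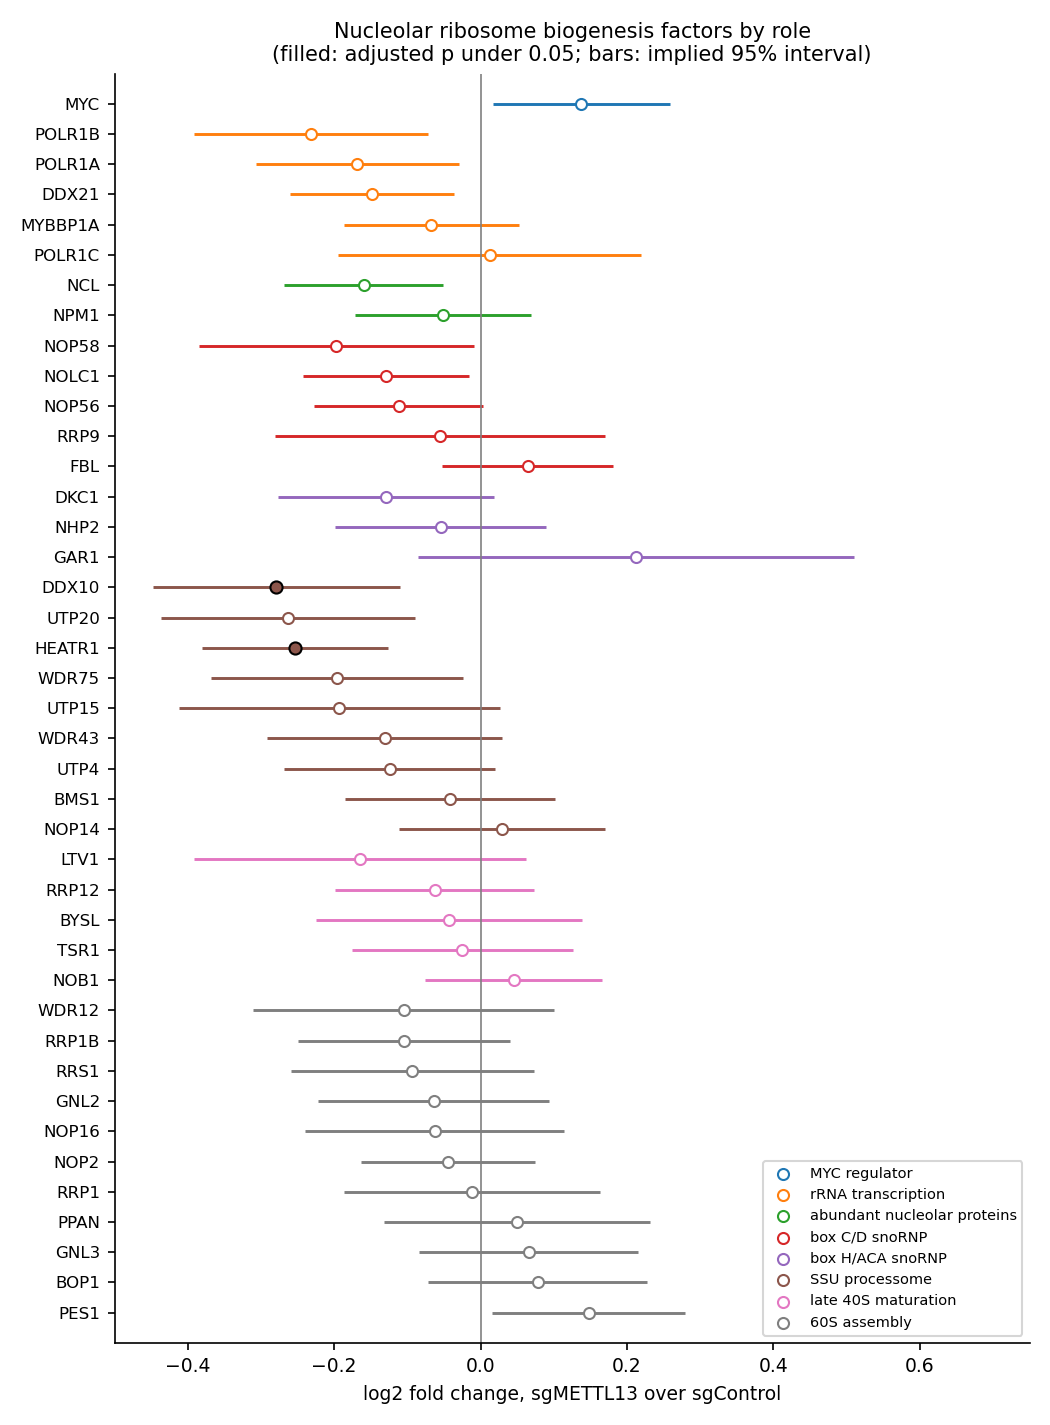
Log2 fold change of sgMETTL13 over sgControl for the 41 members by role, with implied 95% intervals as bars and called members filled. DDX10 (-0.28) and HEATR1 (-0.25) are filled, 29 of 41 intervals cover 0, and GAR1, PES1 and MYC lie farthest to the right.

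Of the 8 snoRNP proteins 0 were called. The 5 box C/D members had a median of -0.11 with 4 below 0 as deposited, and -0.17 with 5 below 0 once the GC and length trend was taken out. The 3 box H/ACA members had a median of -0.05 as deposited and -0.14 in that setting, with 2 below 0 in both. In the box C/D particle, which methylates rRNA, NOP58 had a log2 fold change of -0.20 (127 TPM in sgMETTL13 and 152 TPM in sgControl, adjusted p = 0.357) and its partner NOP56 -0.11 (161 TPM in sgMETTL13 and 183 TPM in sgControl) per the authors' deposited table. FBL, the methyltransferase of the same particle, had 0.06, and SNU13, its remaining core protein, named after its value was seen, 0.07 per the authors' deposited table. The interval of NOP58 (-0.38 to -0.01) overlapped that of FBL (-0.05 to 0.18); the difference between them was not tested. RRP9, a U3 snoRNP protein, had -0.06, and the snoRNP chaperone NOLC1 -0.13 (185 TPM in sgMETTL13 and 213 TPM in sgControl, unadjusted p = 0.0263) per the authors' deposited table. In the box H/ACA particle, which makes pseudouridine, the catalytic subunit DKC1 had -0.13 and NHP2 -0.05, while GAR1 had 0.21 per the authors' deposited table. GAR1 is the member with the fewest reads (214 in sgMETTL13 and 192 in sgControl) and the widest interval (-0.08 to 0.51). NOP10, the fourth core protein of this particle, had 0.16 (adjusted p = 0.296).

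Of the 16 late 40S and 60S factors 0 were called. The 5 late 40S factors had a median of -0.04 per the authors' deposited table with 4 below 0, and of -0.11 with 5 below 0 once the GC and length trend was taken out. The export adaptor LTV1 was the lowest at -0.17 (27.0 TPM in sgMETTL13 and 31.8 TPM in sgControl) and NOB1, the nuclease that makes the 3′ end of 18S rRNA, the highest at 0.05 (163 TPM in sgMETTL13 and 166 TPM in sgControl) per the authors' deposited table. BYSL, TSR1 and RRP12 lay between -0.06 and -0.02. The 11 pre-60S factors had a median of -0.04 with 7 below 0 as deposited, and of -0.07 with 9 below 0 in the same setting, and ran from WDR12 at -0.11 to PES1 at 0.15 per the authors' deposited table. PES1, BOP1 and WDR12 form the PeBoW complex, which is needed for 28S rRNA processing. As deposited, PES1 and BOP1 lay above 0 and WDR12 below. The intervals of BOP1 (-0.07 to 0.23) and WDR12 (-0.31 to 0.10) covered 0. With the GC and length trend taken out PES1 had 0.08, BOP1 -0.04 and WDR12 -0.05, and differences between them were not tested. PES1 averaged 194 TPM in sgMETTL13 and 184 TPM in sgControl (interval 0.02 to 0.28, adjusted p = 0.288). BOP1 averaged 117 TPM in both groups (0.08 per the authors' deposited table), and WDR12 21.1 TPM in sgMETTL13 and 23.9 TPM in sgControl. The nucleolar GTPases GNL3 (nucleostemin) and GNL2 had 0.07 and -0.06, the rRNA methyltransferase NOP2 -0.04, and the assembly factors RRS1, NOP16, RRP1B and RRP1 -0.09, -0.06, -0.10 and -0.01 per the authors' deposited table. PPAN (0.05) shares 1447 of its 1739 exon bases with the readthrough gene PPAN-P2RY11, at 0.29 per the authors' deposited table (adjusted p = 0.0940), so the division of reads between them is uncertain. In all, 14 members overlap exons of another gene by at least 100 bases, with the highest shares of exon bases in PPAN (83.2%), NOP2 (70.9%) and NHP2 (43.8%).

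For each gene by itself, the implied interval shows how large a change is compatible with the spread between these libraries, which may be technical. The median implied standard error of the members was 0.0763, so a log2 difference of about 0.15 was needed for the interval of a typical member to leave 0. Every one of the 41 intervals lay within -0.45 and 0.51, so that no member's interval reached a log2 fold change of 1 in either direction. In 29 members the interval covered 0.

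Around the members, the wider pathway showed few calls. Of 141 further ribosome biogenesis genes in 6 lists, all measured, 2 were called higher and 2 lower per the authors' deposited table. That is 2.84%, beside 3.80% of all genes and 7.04% of abundant genes. Their median average read count was 794, above the limit for abundant genes. In all, 83 lay below 0 (58.9%, beside 49.8% of all genes and 46.7% of abundant genes) with a median of -0.03. RRP15, a pre-60S factor, fell by 0.32 (24.6 TPM in sgMETTL13 and 34.9 TPM in sgControl, adjusted p = 0.0285), and MDN1, the large ATPase that strips assembly factors from pre-60S particles, by 0.24 (11.1 TPM in sgMETTL13 and 13.7 TPM in sgControl, adjusted p = 0.0420) per the authors' deposited table. POLR2L, a small subunit shared by RNA polymerases I, II and III, rose by 0.35 (590 TPM in sgMETTL13 and 488 TPM in sgControl, adjusted p = 2.48e-05), and the late 40S kinase family member RIOK3 by 0.32 (820.1 average reads in sgMETTL13 and 683 in sgControl, adjusted p = 0.0194) per the authors' deposited table. With the GC and length trend taken out, RRP15 (adjusted p = 0.176) and MDN1 (adjusted p = 0.173) lost their calls, and POLR2L (adjusted p = 0.0396) and RIOK3 (adjusted p = 0.00855) kept theirs. In the 34 further SSU processome genes 0 were called and 25 lay below 0 (median -0.05), with 4 lower and 1 higher at an unadjusted p under 0.05; LYAR had the smallest p among them (-0.21 per the authors' deposited table, adjusted p = 0.142). The 16 exosome and pre-rRNA nuclease genes had a median of 0.04 with 0 called and 0 at an unadjusted p under 0.05, and EXOSC6 had the smallest p (0.18, adjusted p = 0.747). In the 15 further snoRNP genes 0 were called and 1, NOP10, passed at an unadjusted p under 0.05.

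**Figure D3:**
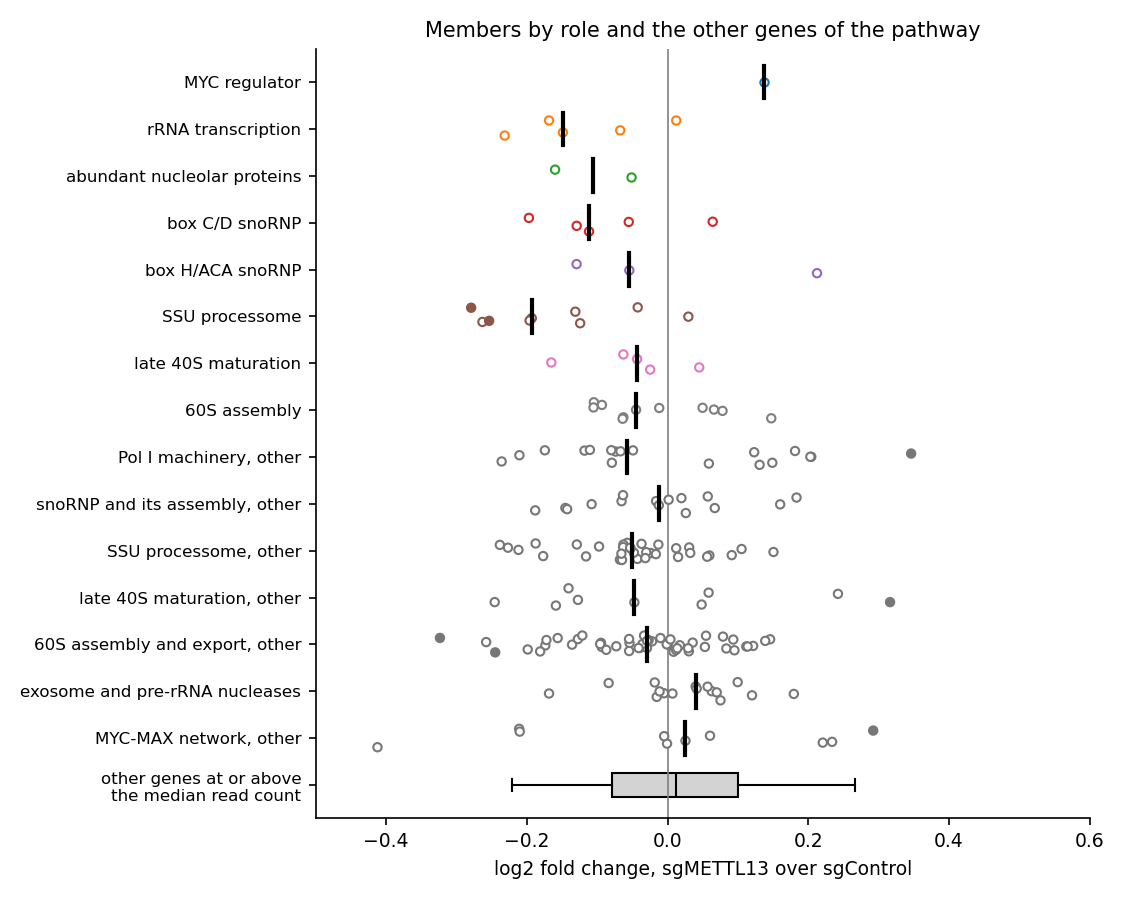
Log2 fold change of each member by role and of the other genes of the pathway, with called genes filled and list medians as black bars; the box shows the quartiles and the 5th and 95th percentile of other abundant genes. The SSU processome members have the lowest median as deposited (-0.19), whereas with the GC and length trend taken out that of box C/D snoRNP is lower (-0.17, beside -0.15); PWP2 (-1.17) and MYCN (1.47), both with few reads and not called, lie outside the axis.

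Fold change varied with the composition of the transcript among the members. The correlation of log2 fold change with GC content of the longest transcript was r = 0.56 (Spearman's rho 0.61) across the 41 members, and r = 0.33 (rho 0.37) across 8289 abundant genes. With transcript length it was r = -0.55 (rho -0.53) in the members and r = -0.25 (rho -0.27) in those genes. These are descriptions across genes of the same libraries, and genes are not independent replicates. The SSU processome members had a median GC content of 41.5% and a median transcript length of 4922 bases, beside 48.4% and 3022 bases over all members. There were 14 members with a GC content under 45%, among them DDX10, HEATR1 and UTP20. Of these, 13 lay below 0 with a median of -0.18 per the authors' deposited table. Abundant genes in the same GC range had a median of -0.04, with 63.6% below 0. The 27 members at or over 45% had a median of -0.05 with 18 below 0, and abundant genes of that range a median of 0.04 with 37.9% below 0. The members' median was the lower in both ranges. The 45% limit was not set in the plan, and the cause of the difference was not tested. When a smooth trend in GC content and length was removed over all genes, the median of the members was -0.11 and 35 of 41 lay below 0. Abundant genes then had a median of -0.01, with 4406 of 8289 below 0. No member was called in that setting (2.71% of all genes were, and 400 of the 8289 abundant genes). At an unadjusted p under 0.05, 13 members were lower and 0 higher, beside 5.47% lower and 5.19% higher of all genes. The share of abundant genes at that limit was not computed for this setting. HEATR1 (-0.20) and NOP56 (-0.17, adjusted p = 0.0885) came nearest to a call, and DDX10 had -0.22.

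**Figure D4:**
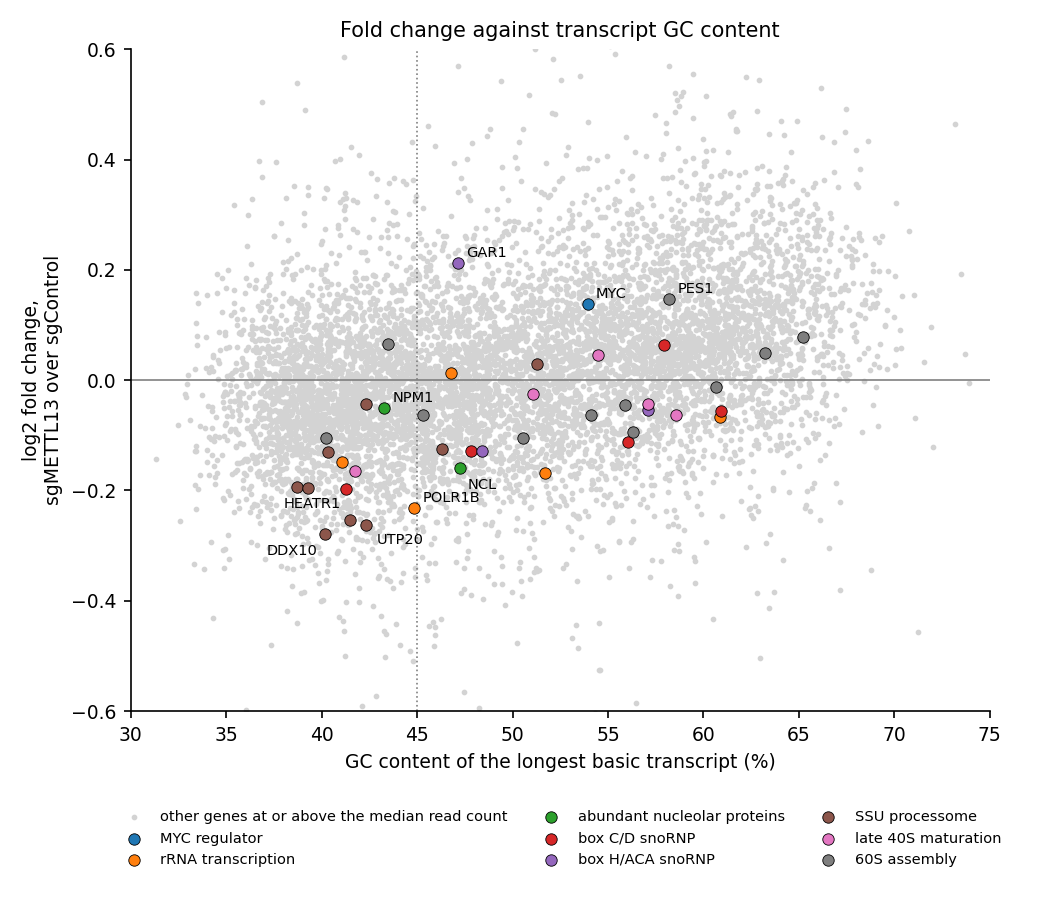
Log2 fold change against transcript GC content for the 41 members, coloured by role, and 8249 other abundant genes (grey, 34 of them outside the axis at 0.6 in size). Members under 45% GC (dotted line) sit lower, with a median of -0.18, than members at or over 45%, with a median of -0.05.

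Many members also carry small nucleolar RNA genes. In GENCODE 29, 9 of the 41 members (22.0%) contain 28 annotated snoRNA genes on their own strand, beside 2.14% of abundant genes. GNL3 contains 6 of them, NOP56 5, NOP58 4, NCL and WDR43 3 each, DKC1, TSR1 and PPAN 2 each and POLR1C 1. The 9 host genes had a median of -0.11 and none was called per the authors' deposited table; the 32 other members had a median of -0.06 with 2 called. The snoRNAs themselves were not analysed here.

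E-boxes were frequent near the transcript starts of the members. RefSeq promoters were held for 34 members (40 promoters), and 15 of the promoters, of 15 genes, contained CACGTG (37.5%). The share was 7.26% of all 35116 promoters of the table and 10.1% of those of abundant genes. In the further ribosome biogenesis genes it was 24.3% (35 of 144 promoters), so the motif was frequent in the wider pathway too. In the members 14 of 15 matches lay wholly within 40 bases of the start, while in abundant genes 30.4% of 1166 matches did. The 40-base limit was not set in the plan, so this contrast is a description only. Short stretches are shown for 6 members to show how the motif sits beside different fold changes, from UTP20 to GAR1; capitals mark the motif, and all are from GRCh38.p14.
UTP20 (chr12:101280083-101280112, plus): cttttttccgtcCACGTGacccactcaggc
DDX21 (chr10:68956604-68956633, plus): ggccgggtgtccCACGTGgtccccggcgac
WDR43 (chr2:28894658-28894687, plus): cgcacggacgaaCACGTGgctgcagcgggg
FBL (chr19:39846356-39846385, minus): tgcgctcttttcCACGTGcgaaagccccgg
PES1 (chr22:30591880-30591909, minus): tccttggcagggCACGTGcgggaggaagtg
GAR1 (chr4:109815781-109815810, plus): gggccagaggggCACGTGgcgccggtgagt

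Fold changes of members with and without the motif overlapped. The 15 members with CACGTG ran from UTP20 at -0.26 to GAR1 at 0.21 with a median of -0.06 and none called, and the 19 without it from DDX10 at -0.28 to PPAN at 0.05 with a median of -0.11 and 2 called, per the authors' deposited table. Of those with the motif 10 lay below 0 and of those without it 16, and the difference was not tested. A match describes the letters of the window, and binding was not measured.

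**Figure D5:**
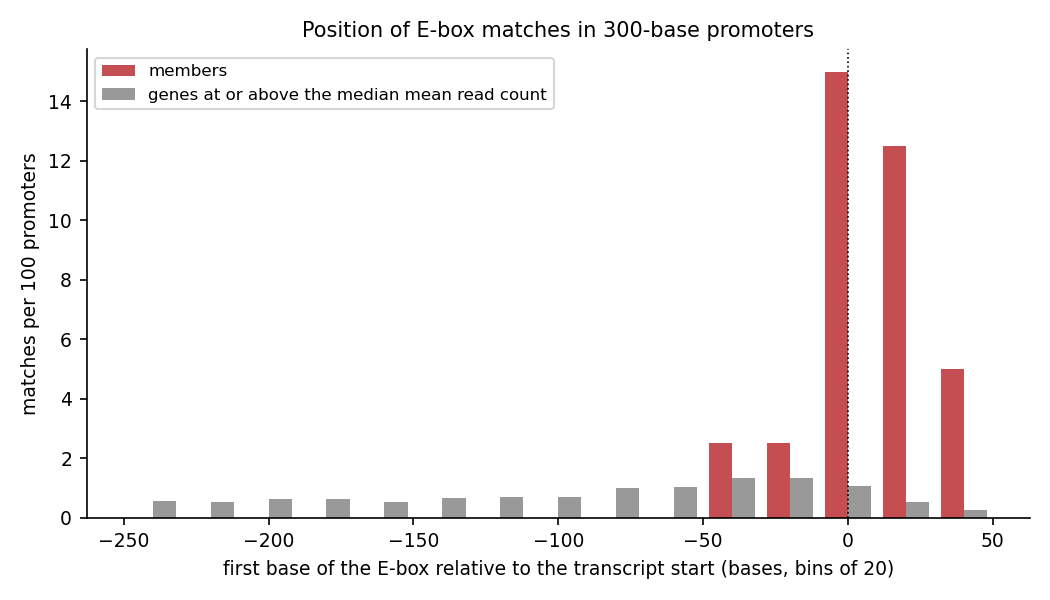
E-box matches per 100 promoters by position relative to the transcript start, in bins of 20 bases, for the members (40 promoters) and for abundant genes (10069 promoters). The members' matches all begin within 50 bases of the start, with 6 of 15 in the bin that spans it and 5 in the next bin downstream.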

How the data were processed

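Per the labels' protocols, TRIzol was used for RNA from T3M4 cells and a sequencing company made the libraries. Groups follow the guide named in each title; the labels tie KD columns to sgMETTL13 and WT columns to sgControl. Per the submitters' processing notes RSEM 1.2.12, HISAT2 2.0.4 and Bowtie2 2.2.5 were used, with DESeq2 (no version given) and the builds GRCh38.p12 and hg38; which did what is not stated there. Per the file headers the authors deposited average TPM, average FPKM (not used) and average read count per group, a p-value, its q-value and the log2 fold change. The averages are expected counts as deposited, since 21.4% of genes are not multiples of 1 read over 3 libraries (tolerance 0.005 on the sum), 9 members among them. The deposited q-value, called the adjusted p, lies within 1.22% of one recomputed by Benjamini-Hochberg from the p-value.

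A count model on libraries was planned, but the table holds no library values, so the deposited comparison is the result and the depth of single libraries is unknown. The implied standard error assumes a normal test. The members and lists were chosen with earlier results of these data known. The text names the members, METTL13, EEF1A1 and, from each other list, up to 4 called genes or the 1 with the smallest p; overlapping genes and complex partners were added. Of 152 list genes 3 were matched by Entrez ID, the others by symbol. Coordinates, GC content and length (longest basic transcript) come from GENCODE 29 for 97.6% of genes, and promoters from RefSeq (GRCh38.p14). The trend was fitted with weighted splines of 4 degrees of freedom and the steps were tested on simulated data. That simulation held a linear GC trend, no length trend and changes larger than those of the called members. Whether the trend step keeps changes as small as theirs was not tested. Protein sequences were not used here. Software was matplotlib 3.10.9, patsy 1.0.2, scipy 1.17.1, pandas 2.3.3 and numpy 2.4.6 under Python 3.11.15.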

Additional observations from a re-analysis of the deposited data

How the results depend on the processing

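Of the 41 members 2 were called (4.88%, beside 3.80% of all genes and 7.04% of abundant genes). The count was 1 (HEATR1) at an adjusted p under 0.01, 5 at an adjusted p under 0.1 and 5 when only abundant genes (at least 205 average reads) were tested, the same genes both times (DDX10, HEATR1, NCL, POLR1B and UTP20). It was 0 under Bonferroni adjustment and 0 once the GC and length trend was taken out. At an unadjusted p under 0.05 there were 12 members, and 13 with the trend removed. At an adjusted p under 0.1 all 5 were lower, beside 1.62% of all genes and 2.71% of abundant genes. With the trend removed 2.71% of all genes were called. No background share was computed for the 0.01, Bonferroni and abundant-only settings, so those counts cannot be set against one. Without the 14 members whose exons overlap another gene by at least 100 bases, a setting added after the data were seen, the count of called members was 1 (DDX10). For the 141 further genes, 4 were called, 1 at an adjusted p under 0.01, 1 under Bonferroni adjustment and 2 (POLR2L and RIOK3, but not RRP15 and MDN1) with the trend removed; the cause was not tested. DDX10 and HEATR1 lost their call with the trend removed and kept their direction. Their calls stayed with centred fold changes and a recomputed Benjamini-Hochberg adjustment. The members' median stayed below 0 throughout, from -0.14 with the ratio of average TPM (pseudocount 1) to -0.06. No paired analysis was possible because the table holds group averages, and leaving out single replicates could not be run for the same reason. Among genes as abundant as GAR1, with about 203 reads, the implied standard error of 0.15 limits what can be seen.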
